A study of Mus musculus with 38 samples.

Results

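The periportal IBA1 segments of Trail.mye livers were compared between the DDC diet and the control diet. They are all 9 segments that the labels give this genotype, zone and morphology marker, out of 38 in the series, with 5 from DDC-fed mice (ROIs 032 to 036) and 4 from control diet-fed mice (ROIs 026 to 029), and all 10547 genes measured were used. IBA1 is a protein of macrophages, and its stain served as the mask from which probe barcodes were released by light in the GeoMx assay, so that a segment is the IBA1-stained area of 1 region of interest (ROI) and can hold RNA of other cells within the mask. Trail.mye mice carry a Cre recombinase driven by the *Lyz2* locus, which is active in monocytes, macrophages and neutrophils, together with a floxed *Tnfsf10*, the gene of the death ligand TRAIL, made from a knockout-first allele of the KOMP repository. Both diet groups therefore share the Cre and the deletion, and *Tnfsf10* itself was not analysed here. The mice were C57BL/6, aged 6 to 8 weeks, and received 3 rounds of 5 days of either the control diet or a diet with 0.1% DDC, with 3 days of chow between rounds, until they were killed on day 22. Periportal IBA1 segments of wild-type (WT) mice on the same diets, 4 DDC and 2 control, were part of the same statistical fit. They entered its estimate of the spread, and their values are given for comparison. The labels name neither the animal nor its sex, and segments that share a mouse would make p-values over segments too small to stand for mice.

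DDC inhibits ferrochelatase, the last enzyme of heme synthesis, and the protoporphyrin that builds up plugs small bile ducts. Bile leaks, periductal inflammation and fibrosis follow, with a ductular reaction around the portal vein. In the resting liver most macrophages are Kupffer cells, which carry CLEC4F, VSIG4 and TIMD4 and clear particles, iron and old red cells from sinusoidal blood. In injury, blood monocytes enter and can take on a state marked by TREM2, GPNMB, CD9 and osteopontin (SPP1), known as lipid-associated or scar-associated macrophages.

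The total count per segment was 80721, 104031, 220381 and 99957 in control ROIs 026 to 029 and 202900, 158219, 189209, 568719 and 173278 in DDC ROIs 032 to 036, a 1.94-fold ratio of geometric means (exact permutation test on log10 totals, two-sided p = 0.0873, smallest possible 0.00794). Without control ROI 028, the deepest of its group, the ratio was 2.40 (exact permutation p = 0.0179, the smallest possible there). With any other segment left out the exact permutation p was 0.114 to 0.232, and without DDC ROI 035 the ratio was 1.54 (p = 0.143). All later values are Q3-normalized counts, which the authors scaled so that each segment has the same 75th percentile (10.5), and they are listed in ROI order. DDC ROI 035 stood apart from the rest, since its negative probe, which matches no transcript, read 5.51 against 1.45 to 2.62 in the other DDC segments and 2.89 to 3.33 in the control segments. Only 21.7% of the genes lay above 2 times the negative probe in ROI 035, against 71.0% to 85.7% in the other DDC segments and 45.3% to 61.7% in the control segments. No value was below 1 count, and 0.313% to 13.1% of the genes of a control segment and 0% to 1.97% of those of a DDC segment were at that floor. Defining macrophage transcripts were present in all 9 segments. *C1qa*, *Csf1r*, *Adgre1* and *Cd68* were higher in the IBA1 segment than in the PanCK segment, which covers epithelium, in 9 of 9 ROIs, and *Krt19* and *Epcam* of cholangiocytes were lower in 9 of 9. *Aif1*, the gene of IBA1, was higher in the IBA1 segment in 7 of 9 ROIs, and *Lyz2*, *Itgam* and *Cx3cr1* in 8. *Alb*, a transcript of hepatocytes, was nevertheless read at 7339.8 to 10538 in the control IBA1 segments.

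Some transcripts that differ by sex also differed between the diet groups. Of 5 sex-linked transcripts tested, 2 were called higher (40%, against 4.2% of all genes) and 0 lower in DDC segments (median log2 fold change 0.61). *Gm21783*, annotated on the Y chromosome, was 1.75, 5.25, 3.94 and 1.31 in control segments and 69.2, 97.8, 55.1, 25.6 and 48.0 in DDC segments, and *Ddx3y*, a Y-linked RNA helicase, was 1.75, 9.19, 1.31 and 2.63 in control segments and 6.80, 10.5, 11.2, 10.9 and 9.00 in DDC segments. In the WT periportal IBA1 segments *Gm21783* was 26.3 and 63.0 in the 2 control segments and 21.0 to 68.3 in the 4 DDC segments. *Hamp2*, a paralog of hepcidin that is female-biased in the mouse liver, was 105, 112, 91.3 and 113 in control segments and 6.80, 7.27, 1.31, 8.52 and 3.75 in DDC segments. Of 19 female-biased liver genes tested, 10 were called lower in DDC segments (52.6%, against 5.18% of all genes) and 1 higher (5.26%, against 4.2%). Their median log2 fold change was -1.11. Among them *Prlr*, *Cyp17a1* and *Cyp2b13* had log2 fold changes of -1.86, -2.11 and -2.34, and *Fmo2* one of 1.12. Of 12 male-biased liver genes 5 were called lower (41.7%, against 5.18% of all genes), with a median of -0.76. Among them were *Mup13* (-6.60), *Slco1a1* (-1.64), *Nudt7* (-1.53) and *Ugt2b38* (-1.32). *Gm21783* and *Hamp2* did not overlap between the diets, while control ROI 027 lay within the DDC range for *Ddx3y*, whose call was lost without control ROI 028 (adjusted p = 0.113). The labels give neither the sex nor the animal. A difference in either between the diet groups cannot be told apart from the diet for any gene, sex-biased or not. This limit holds for every diet effect given below.

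**Figure D1:**
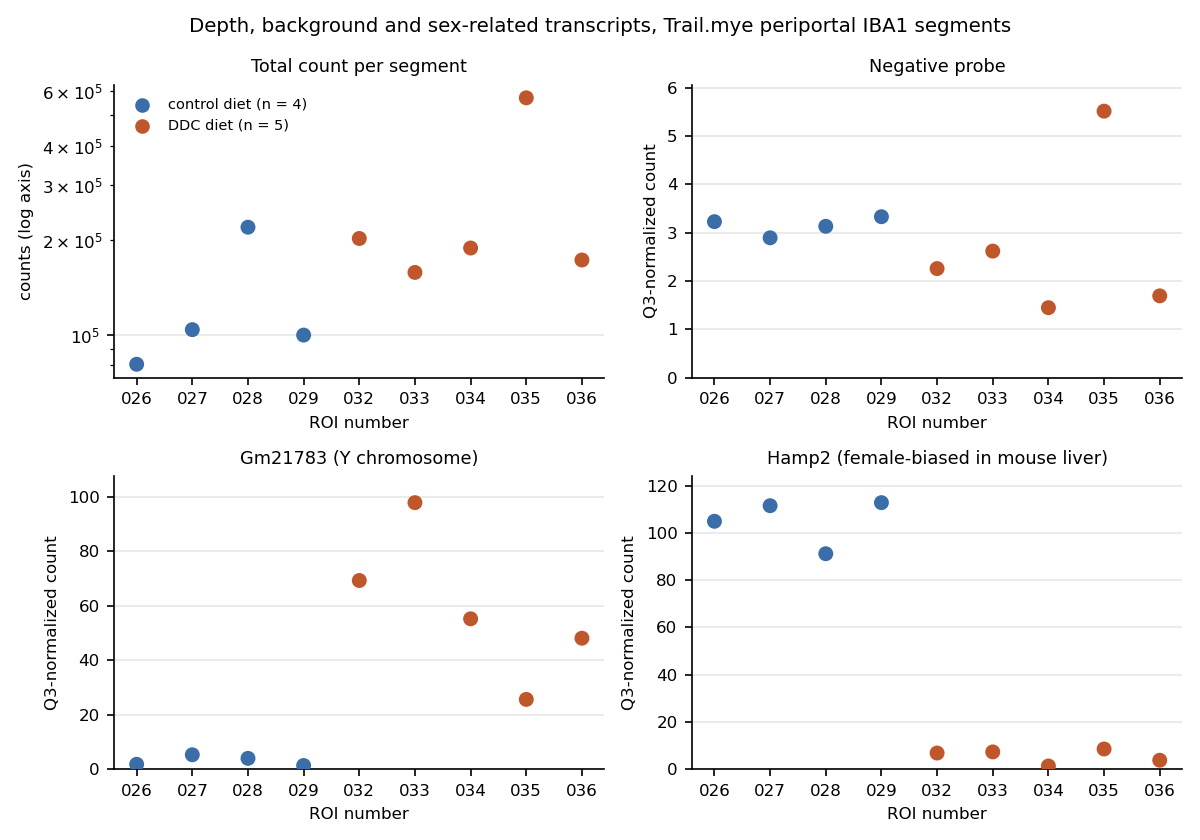
The 9 segments by ROI number, with the control diet in blue and the DDC diet in orange, 1 point per segment: total count on a log axis, and Q3-normalized count of the negative probe, *Gm21783* and *Hamp2* on axes that start at 0. ROI 035 has the highest total (568719) and the highest negative probe (5.51), and *Gm21783* and *Hamp2* do not overlap between the diets.

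Of 10547 genes, 443 (4.2%) were called higher and 546 (5.18%) lower in the DDC segments, at an adjusted p under 0.05 in edgeR's quasi-likelihood test. These shares are the ones against which the counts of called members in each gene list are to be read. The median log2 fold change over all genes was 0.07, and 44 of the genes called higher and 58 of those called lower changed more than 4-fold. Over all 10547 genes, called or not, the 5 DDC and 4 control segments did not overlap for 426 genes higher and 567 lower in DDC. There was no overlap for 277 of the genes called higher and 424 of those called lower. The 12 genes that rose most among these, at a mean count of 10 or more, were *Spp1* (4.18), *Gm21783* (4.10), *Col1a1* (3.73), *Trem2* (3.34), *Col1a2* (3.29), *Col3a1* (3.28), *Gpnmb* (3.04), *Ms4a4a* (2.86), *Sparcl1* (2.85), *Mmp12* (2.84), *Krt8* (2.80) and *Ccdc80* (2.75), with the log2 fold change in parentheses. Apart from the Y-linked transcript and a keratin, they are known as genes of macrophages or of matrix. *Spp1*, however, was higher in the IBA1 than in the PanCK segment in 0 of 9 ROIs. Of the 12 that fell most, 11 were *Mup13* (-6.60), *Fabp1* (-5.34), *Cyp2c67* (-4.13), *Hamp2* (-4.11), *Scd1* (-3.75), *Clec4f* (-3.61), *Thrsp* (-3.54), *Ces3b* (-3.25), *Sult2a8* (-3.18), *Car3* (-3.18) and *Mbl2* (-3.14), all transcripts of hepatocytes except *Clec4f* of Kupffer cells. *Mup13* belongs to a family of near-identical genes whose probes may share transcripts. In 60 of the genes called higher, the control mean was at or under the negative probe. DESeq2 with its own size factors called 209 higher and 449 lower, a share of 31.8% higher among called genes against 44.8%. Over the other settings this share was 29.4% (segments thinned to the smallest total) to 57.1% (edgeR's filterByExpr). A limma fit on log2(Q3 + 1) called 249 higher and 314 lower, and with the negative probe subtracted from every value it called 82 and 85. Without ROI 035 the calls were 470 and 685, and 828 of the 989 genes called with all segments were called in the same direction.

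**Figure D2:**
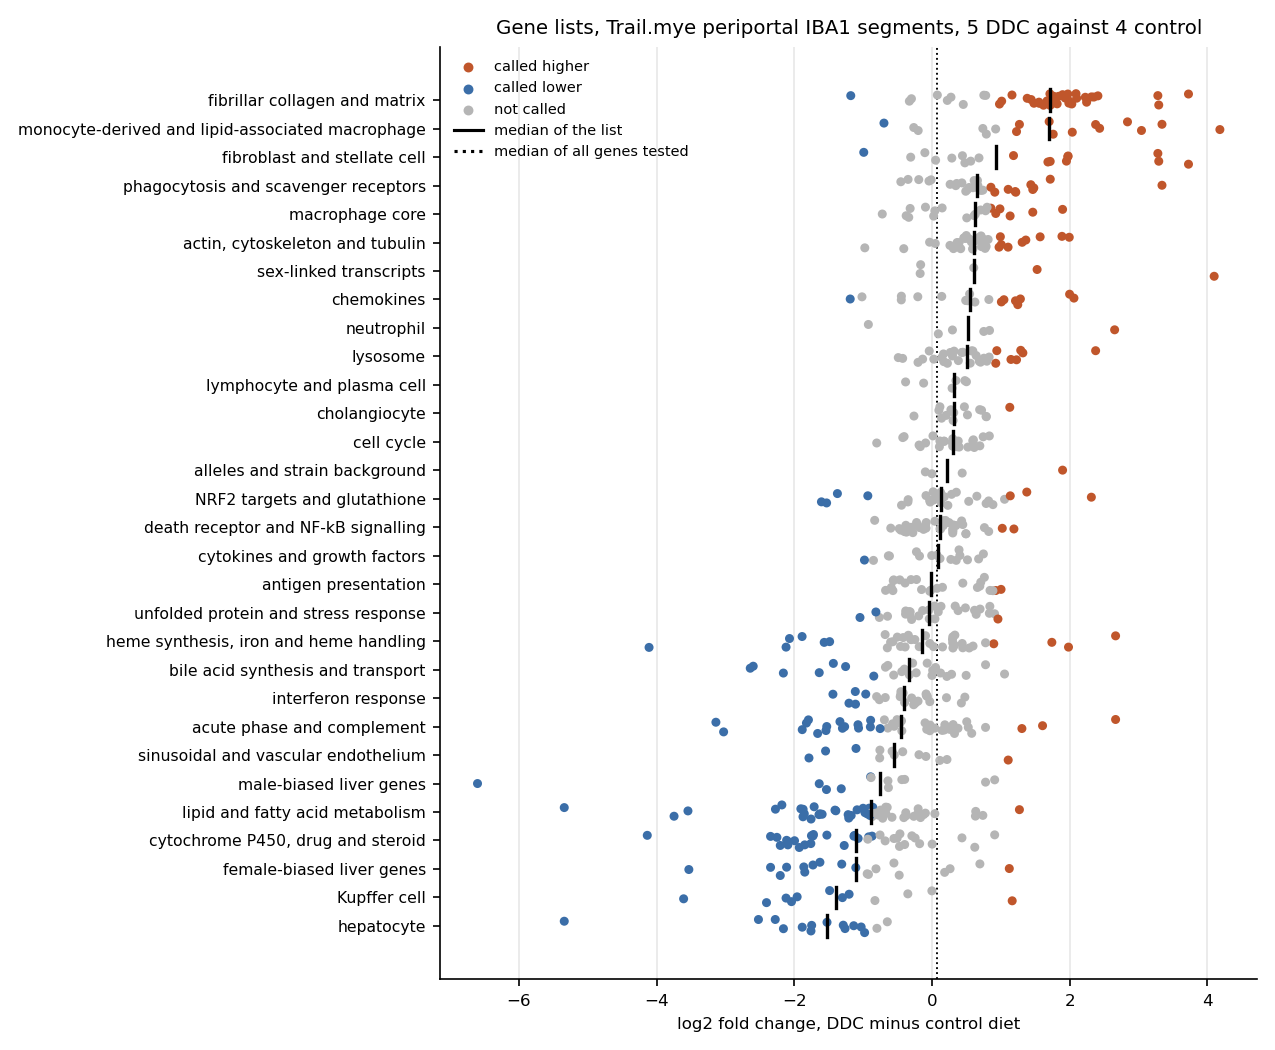
Log2 fold change (DDC minus control diet, x axis) of every measured member of the gene lists (y axis, sorted by median), with genes called higher in orange, called lower in blue and not called in gray. Black bars are list medians and the dotted line is the median of all genes (0.07). The matrix list lies highest (median 1.72) and the hepatocyte list lowest (-1.52).

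Most Kupffer cell transcripts fell and most lipid-associated macrophage transcripts rose, while most pan-macrophage transcripts did not pass the test. Among 12 Kupffer cell genes tested, 8 were called lower and 1 higher (median log2 fold change -1.39), and in the lipid-associated list 11 of 17 were called higher and 1 lower (median 1.70). The macrophage core list had 6 of 20 higher and 0 lower (median 0.62). In these segments, fewer cells of a type and less RNA per cell cannot be told apart. The upstream promoter sequences of 4 of these genes are printed to show the DNA next to which these opposite changes were read, from the RefSeq table for GRCm38.p6. Each is the 250 bases before the transcription start, 5′ to 3′ on the gene's strand, with matches to 4 motifs in capitals (AP-1, TGANTCA; the antioxidant response element core, TGACNNNGC; the interferon-stimulated element, GAAANNGAA; and NF-kB), on either strand.
Spp1 (chr5:104434861-104435110, + strand): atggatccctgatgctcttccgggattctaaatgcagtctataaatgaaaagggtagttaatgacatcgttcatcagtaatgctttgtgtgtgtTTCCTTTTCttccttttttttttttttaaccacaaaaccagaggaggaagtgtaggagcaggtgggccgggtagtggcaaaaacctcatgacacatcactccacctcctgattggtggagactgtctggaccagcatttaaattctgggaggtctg
Trem2 (chr17:48346151-48346400, + strand): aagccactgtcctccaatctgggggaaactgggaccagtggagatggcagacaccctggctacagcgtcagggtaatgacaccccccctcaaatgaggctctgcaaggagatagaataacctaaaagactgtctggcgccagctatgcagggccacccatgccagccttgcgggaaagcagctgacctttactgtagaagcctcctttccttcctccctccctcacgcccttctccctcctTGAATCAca
Gpnmb (chr6:49036268-49036517, + strand): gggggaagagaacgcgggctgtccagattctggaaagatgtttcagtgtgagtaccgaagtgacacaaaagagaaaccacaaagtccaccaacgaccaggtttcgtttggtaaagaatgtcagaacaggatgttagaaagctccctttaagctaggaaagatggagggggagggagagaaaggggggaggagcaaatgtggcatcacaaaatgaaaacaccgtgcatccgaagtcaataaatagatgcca
Clec4f (chr6:83656117-83656366, - strand): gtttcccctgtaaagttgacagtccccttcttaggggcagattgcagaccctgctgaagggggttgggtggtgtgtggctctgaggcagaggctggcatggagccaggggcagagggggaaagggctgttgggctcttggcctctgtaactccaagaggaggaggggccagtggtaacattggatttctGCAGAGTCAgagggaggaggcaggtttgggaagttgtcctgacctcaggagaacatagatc
The match in *Spp1* (the first of 2 starts in the table) is to the interferon-stimulated element, that in *Trem2* to AP-1 and that in *Clec4f* to the antioxidant response element core, and *Gpnmb* held none. Of the genes tested, 8428 had a promoter in the table. AP-1 was found in 7.65% of 353 promoters of genes called higher, 7.06% of 439 of genes called lower and 4.63% of all. For the antioxidant core the shares were 10.5%, 11.2% and 11.8%, for the interferon element 7.65%, 6.38% and 6.23%, and for NF-kB 3.97%, 5.24% and 4.22%. A letter match is a description and not a binding site.

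*Clec4f*, the C-type lectin that defines mouse Kupffer cells, was 121, 105, 142 and 72.2 in control segments and 11.7, 9.70, 3.94, 6.74 and 14.3 in DDC segments, a 12.2-fold lower level (log2 fold change -3.61 ± 0.34, adjusted p = 6.83e-12). Every DDC segment lay below every control segment. *Cd5l*, a secreted scavenger protein of Kupffer cells, was 61.3, 64.3, 93.2 and 65.7 in control segments and 13.0, 13.7, 8.54, 9.91 and 24.8 in DDC segments (log2 fold change -2.40 ± 0.30, adjusted p = 2.59e-08). *Folr2*, a folate receptor of resident macrophages, was 26.3, 18.4, 28.2 and 18.4 in control segments and 4.94, 2.42, 1.97, 8.52 and 5.25 in DDC segments (log2 fold change -2.04 ± 0.27, adjusted p = 1.02e-07). The groups did not overlap for either gene. *Cd163*, the receptor that takes up hemoglobin bound to haptoglobin, was 14, 34.1, 9.19 and 18.4 in control segments and 1.85, 4.85, 1.97, 5.75 and 2.25 in DDC segments (log2 fold change -2.12 ± 0.31, adjusted p = 9.28e-07). *Vsig4*, a complement receptor, and *Timd4*, a receptor for apoptotic cells, had log2 fold changes of -1.96 ± 0.30 and -1.20 ± 0.32 (adjusted p = 1.77e-06 and 0.00771). The iron exporter *Slc40a1* (-1.49) and the oxysterol receptor *Nr1h3* (-1.30) fell as well. *Marco*, a scavenger receptor, had a log2 fold change of -0.83 ± 0.33 and did not pass the test (adjusted p = 0.106), but passed without DDC ROI 033 (-1.05, adjusted p = 0.0325). *Id3*, a transcription regulator that Kupffer cells need, was the member called higher, from 5.25 to 7.00 in control to 10.5 to 20.4 in DDC segments (log2 fold change 1.17 ± 0.31, adjusted p = 0.00794). The summed level of the list was 327 to 440.5 in the control and 71.6 to 166 in the DDC segments. Without ROI 035 8 genes of the list were called lower, and as many with the 9 segments thinned to 1 total. The limma fit called 8 lower, and 4 with the negative probe subtracted.

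*Spp1*, which encodes osteopontin, was 8.75, 3.94, 7.22 and 11.8 in control segments and 183, 187, 164, 50.1 and 140.3 in DDC segments, an 18.2-fold higher level (log2 fold change 4.18 ± 0.44, adjusted p = 1.82e-10). ROI 035 held the lowest DDC value, which was still over 4 times the highest control value. In all 9 ROIs *Spp1* was lower in the IBA1 than in the PanCK segment, where its means were 532 in control and 972 in DDC ROIs, and the part of epithelial RNA in the IBA1 values was not tested. *Krt19* and *Krt7* of that epithelium were at 1.31 to 11.8 and 2.63 to 5.25 in control and 3.00 to 8.72 and 1.85 to 7.93 in DDC IBA1 segments. *Trem2*, a lipid receptor, was 3.50, 3.94, 4.60 and 2.63 in control segments and 46.3, 37.2, 52.5, 20.8 and 47.3 in DDC segments (log2 fold change 3.34 ± 0.37, adjusted p = 1.62e-09). *Gpnmb*, a transmembrane glycoprotein of lysosome-rich macrophages, was 5.25, 3.94, 5.25 and 7.88 in control segments and 59.3, 29.1, 51.9, 24.4 and 72.0 in DDC segments (log2 fold change 3.04 ± 0.38, adjusted p = 3.59e-08). Both were low in every control segment and high in every DDC segment, with ROI 035 lowest of the 5. *Cd63*, a tetraspanin of late endosomes, was 5.25, 13.1, 15.8 and 10.5 in control segments and 56.2, 60.6, 80.1, 41.4 and 75.8 in DDC segments (log2 fold change 2.38 ± 0.32, adjusted p = 2.09e-07). *Lgals3*, or galectin-3, was 7.00, 13.1, 19.7 and 10.5 in control segments and 58.1, 62.2, 116, 41.6 and 92.3 in DDC segments (log2 fold change 2.44 ± 0.34, adjusted p = 4.58e-07). *Mmp12*, the macrophage elastase, was 10.5, 6.57, 4.60 and 1.31 in control segments and 28.4, 62.2, 60.4, 15.1 and 35.3 in DDC segments (log2 fold change 2.84 ± 0.42, adjusted p = 9.36e-07). The groups did not overlap for any of these genes. Lower in size were the changes of *S100a4* (2.04), *S100a6* (1.76), *Cd9* (1.70), lipoprotein lipase *Lpl* (1.27) and cathepsin D *Ctsd* (1.23), and *Ms4a4a*, a macrophage tetraspan protein outside the list, rose by 2.86 on the log2 scale (adjusted p = 2.59e-08). *Cd9* was lower in the IBA1 than in the PanCK segment of all 9 ROIs, and *S100a6* in 8. *Cd63* was higher in the IBA1 segment in 5 of 9 ROIs, *Trem2* and *Mmp12* in 7, and *Gpnmb* and *Lgals3* in 9. *Ly6c1*, the member called lower (log2 fold change -0.70 ± 0.24, adjusted p = 0.0499), was no longer called without control ROIs 027, 028 or 029 or DDC ROIs 032, 033 or 034 (adjusted p up to 0.247). In the limma fit 11 genes of the list were called higher, and 8 with the negative probe subtracted.

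*C1qa*, a chain of complement C1q, was 91.0, 129, 148 and 108 in control segments and 111, 118, 163, 83.4 and 189.8 in DDC segments (log2 fold change 0.15 ± 0.30, adjusted p = 0.883). *Csf1r*, the receptor for colony-stimulating factor 1, was 77.0, 73.5, 102 and 38.1 in control segments and 66.1, 66.3, 75.5, 41.2 and 127 in DDC segments (log2 fold change 0.03 ± 0.32, adjusted p = 0.998). The groups overlapped for both. *Adgre1*, which encodes F4/80, had a log2 fold change of -0.37 ± 0.27 and *Cd68* one of 0.71 ± 0.32, and neither passed the test (adjusted p = 0.476 and 0.176). *Aif1*, the gene of IBA1 itself, was 24.5, 27.6, 20.4 and 13.1 in control segments and 13.0, 9.70, 13.8, 11.7 and 16.5 in DDC segments (log2 fold change -0.72 ± 0.25, adjusted p = 0.0559), and was called lower without control ROI 029 (adjusted p = 0.0270) or DDC ROI 036 (0.0363). *Lyz2*, lysozyme and the locus that carries the Cre in both groups, was 8.75, 6.57, 5.91 and 3.94 in control segments and 30.3, 25.1, 28.2, 15.5 and 19.5 in DDC segments (log2 fold change 1.90 ± 0.34, adjusted p = 3.67e-05). *Itgam*, or CD11b, was 8.75, 6.57, 5.91 and 2.63 in control segments and 13.0, 20.2, 21.7, 14.7 and 13.5 in DDC segments (log2 fold change 1.47 ± 0.31, adjusted p = 6.21e-04). Every DDC segment lay above every control segment for *Lyz2* and *Itgam*. *Cx3cr1*, the fractalkine receptor (log2 fold change 1.14 ± 0.30, adjusted p = 0.00792), was not called without control ROIs 028 or 029 (adjusted p up to 0.0663), nor was the Fc receptor chain *Fcer1g* (log2 fold change 0.99 ± 0.27, adjusted p = 0.0115) without control ROI 029 (adjusted p = 0.0561). The limma fit called 3 genes of the core list higher, and 0 with the negative probe subtracted. Thinned to 1 total, 2 of the 20 were called higher.

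**Figure D3:**
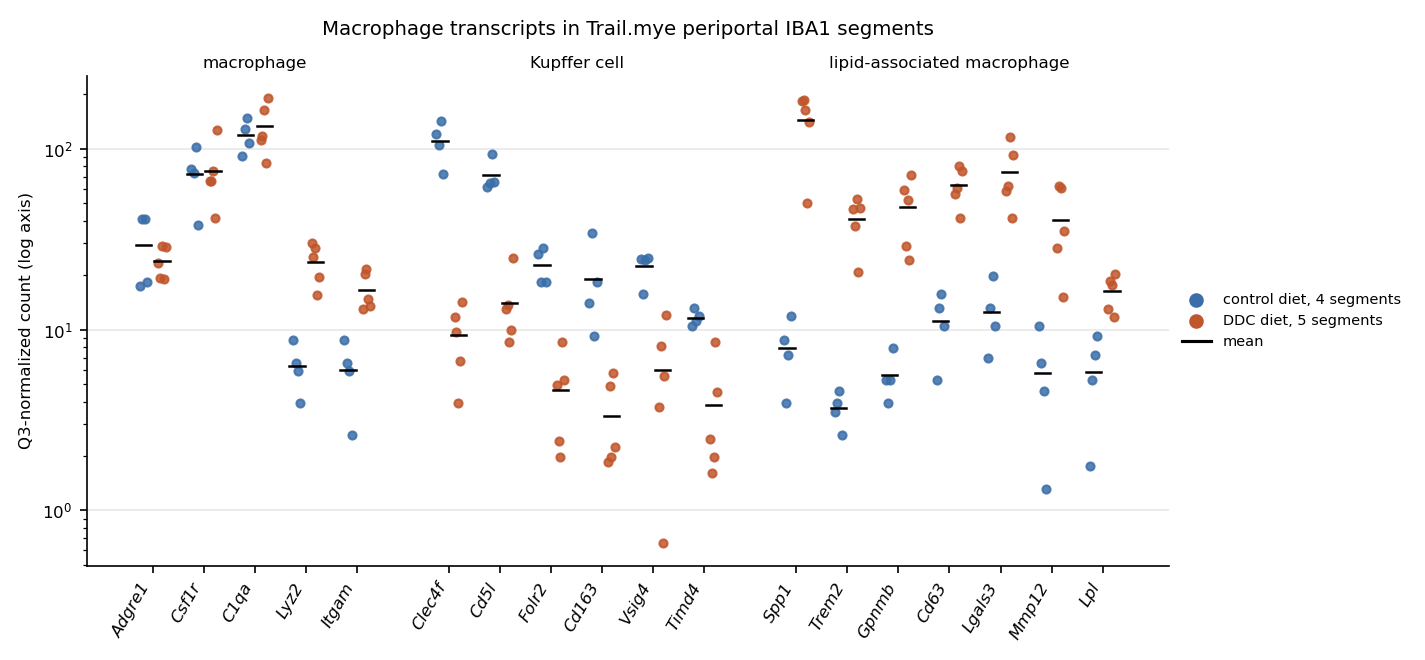
Q3-normalized counts (y axis, log) of macrophage, Kupffer cell and lipid-associated macrophage transcripts (x axis) in the 4 control (blue) and 5 DDC (orange) segments. Each point is a segment and black bars are means. *Clec4f* spans 72.2 to 142 in the control and 3.94 to 14.3 in the DDC segments, and *Trem2* spans 2.63 to 4.60 in the control and 20.8 to 52.5 in the DDC segments.

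Genes of engulfment, lysosomes and the cytoskeleton rose in part. In the phagocytosis list 10 of 29 genes were called higher and 0 lower (median log2 fold change 0.66), in the lysosome list 7 of 32 and 0 (median 0.50), and in the actin list 9 of 36 and 0 (median 0.62). *Gas6*, a bridge between dying cells and TAM receptors, was 10.5, 39.4, 24.3 and 24.9 in control segments and 114, 50.1, 108, 63.8 and 80.3 in DDC segments (log2 fold change 1.72 ± 0.34, adjusted p = 1.83e-04). *Clec7a*, the beta-glucan receptor dectin-1, was 8.75, 9.19, 13.1 and 7.88 in control segments and 21.0, 30.7, 32.8, 20.0 and 43.5 in DDC segments (log2 fold change 1.48 ± 0.31, adjusted p = 4.24e-04). *Mfge8*, another bridge to apoptotic cells, had a log2 fold change of 1.44 ± 0.30, and its IBA1 value was below that of PanCK in all 9 ROIs. *Gas6* was higher in the IBA1 segment in 3 of 9 ROIs, and *Clec7a* in 9. Among lysosomal genes *Psap*, the precursor of saposins, was 126.1, 189, 260.0 and 135 in control segments and 444, 417, 565, 236 and 573 in DDC segments (log2 fold change 1.32 ± 0.32, adjusted p = 0.00334). Of cytoskeletal genes, *Vim*, *Anxa1*, *Anxa2* and *Anxa5* had log2 fold changes of 2.0, 1.89, 1.57 and 1.36. *Anxa2* and *Anxa5* were lower in the IBA1 than in the PanCK segment of all 9 ROIs. *Vim*, an intermediate filament of mesenchymal and myeloid cells, was 10.5, 26.3, 23 and 7.88 in control segments and 70.4, 65.5, 96.5, 49.1 and 73.5 in DDC segments, without overlap. Without ROI 035 the actin list had 17 genes higher and 1 lower. The limma fit called 6, 4 and 7 genes of the phagocytosis, lysosome and actin lists higher, and 2, 3 and 1 with the negative probe subtracted.

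The matrix genes rose most widely. Of 41 genes of fibrillar collagen and matrix tested, 32 were called higher and 1 lower, with a median log2 fold change of 1.72 against 0.07 over all genes. *Col1a1*, a chain of type I collagen, was 1.75, 44.6, 27.6 and 9.19 in control segments and 297, 201, 322, 152 and 476 in DDC segments (log2 fold change 3.73 ± 0.44, adjusted p = 6.15e-09). *Col3a1*, type III collagen, was 15.8, 57.8, 54.5 and 21.0 in control segments and 336, 238, 462, 232 and 603 in DDC segments (log2 fold change 3.28 ± 0.39, adjusted p = 6.32e-09). The control segments varied widely for both, with ROI 026 lowest, and none reached a DDC segment. *Col1a2* (3.29), *Sparc*, a collagen-binding protein (2.41), and elastin, *Eln* (2.25), rose with them. The proteoglycan *Bgn* was 22.8, 31.5, 30.2 and 26.3 in control segments and 104, 102, 147, 84.2 and 138 in DDC segments (log2 fold change 2.03 ± 0.32, adjusted p = 3.59e-06). *Timp1*, an inhibitor of metalloproteinases, was 3.50, 1.31, 3.94 and 3.94 in control segments and 14.2, 13.7, 17.1, 14.9 and 21.0 in DDC segments (log2 fold change 2.23 ± 0.34, adjusted p = 1.87e-06). *Mmp2*, gelatinase A, rose by 2.32 on the log2 scale with overlapping groups, and matrix Gla protein, *Mgp*, by 2.62 without overlap. *Ccdc80* and *Sparcl1*, secreted matrix proteins outside the list, had adjusted p of 3.28e-08 and 6.93e-08. *Col18a1*, the basement membrane collagen that gives endostatin, was the gene called lower (log2 fold change -1.18 ± 0.28, adjusted p = 0.00210). Fibronectin, *Fn1*, was 84.0, 38.1, 59.7 and 57.8 in control segments and 47.0, 57.4, 53.8, 27.6 and 59.3 in DDC segments and did not pass the test (adjusted p = 0.651). Without ROI 035 31 genes of the list were called higher, and 28 in the thinned segments. The limma fit called 30 higher, and 18 with the negative probe subtracted.

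Markers of fibroblasts and stellate cells, the usual source of collagen, moved in part with the matrix genes. Of 18 tested 9 were called higher (50%, against 4.2% of all genes) and 1 lower (5.56%, against 5.18%), with a median of 0.93. The summed level of the list was 179 to 404 in control and 802 to 1789 in DDC segments. The part of these cells in the matrix result was not tested. The 5 genes that the matrix list also holds, 3 collagen genes, decorin and lumican, were all called higher. Of the other 13, 4 were called higher and 1 lower (median 0.48), with a summed level of 122 to 205 in control and 188 to 283 in DDC segments. *Pdgfrb*, the receptor for platelet-derived growth factor B on mesenchymal cells, was 1.75, 6.57, 3.28 and 3.94 in control segments and 14.2, 12.1, 17.1, 16.1 and 18.0 in DDC segments (log2 fold change 1.98 ± 0.30, adjusted p = 2.43e-06). *Hand2*, a transcription factor of stellate cells, had a log2 fold change of 1.95 ± 0.32. *Acta2*, the smooth muscle actin of myofibroblasts, was 3.50, 17.1, 6.57 and 9.19 in control segments and 11.1, 11.3, 10.5, 11.9 and 8.25 in DDC segments (log2 fold change 0.29 ± 0.28, adjusted p = 0.638). *Des*, desmin, was 7.00, 5.25, 9.19 and 2.63 in control segments and 5.56, 3.23, 9.19, 7.93 and 6.0 in DDC segments (log2 fold change 0.05 ± 0.32, adjusted p = 0.991). Both overlapped between the diets. *Ecm1*, a secreted protein that binds latent TGF-beta, was called lower (log2 fold change -0.99 ± 0.27, adjusted p = 0.00972), but not without control ROI 029 (adjusted p = 0.0947). In the endothelial list 3 of 13 genes were called lower (23.1%, against 5.18% of all genes) and 1 higher (7.69%, against 4.2%), with a median of -0.55. *Dnase1l3*, a secreted nuclease of sinusoidal endothelium, was 19.3, 26.3, 25.6 and 19.7 in control segments and 3.71, 5.66, 7.88, 8.32 and 5.25 in DDC segments. *Cdh5*, the endothelial cadherin, and *Kdr*, the VEGF receptor, had log2 fold changes of -1.54 and -1.10, and *Fcgr2b*, an inhibitory Fc receptor that macrophages also carry, one of 1.11. The call of *Kdr* was lost without control ROIs 026 or 029 or DDC ROI 036 (adjusted p up to 0.192), and that of *Fcgr2b* without control ROIs 028 or 029 (adjusted p up to 0.144).

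Of 19 chemokine genes tested, 7 were called higher (36.8%, against 4.2% of all genes) and 1 lower (5.26%, against 5.18%), with a median log2 fold change of 0.55. *Cxcl14*, a chemokine of epithelium and fibroblasts, was 5.25, 5.25, 2.63 and 3.94 in control segments and 17.3, 15.3, 24.9, 10.7 and 20.3 in DDC segments (log2 fold change 2.06 ± 0.37, adjusted p = 4.48e-05). *Ccl9*, a ligand of CCR1, was 3.50, 5.25, 3.28 and 5.25 in control segments and 15.4, 33.1, 19.7, 11.7 and 11.2 in DDC segments (log2 fold change 2.0 ± 0.37, adjusted p = 6.02e-05). The groups did not overlap for these 2 genes. *Ccl5*, a chemokine for T cells and monocytes, had a log2 fold change of 1.21 ± 0.32 (adjusted p = 0.00799). *Cx3cl1*, the ligand of CX3CR1, was 5.25, 1.31, 6.57 and 2.63 in control segments and 10.5, 8.89, 12.5, 11.3 and 8.25 in DDC segments (log2 fold change 1.25 ± 0.33, adjusted p = 0.00660) and was not called without control ROI 027 (adjusted p = 0.0545). *Ccl2*, which draws CCR2+ monocytes, was 3.50, 2.63, 3.28 and 3.94 in control segments and 10.5, 12.9, 6.57, 6.94 and 6.0 in DDC segments (log2 fold change 1.28 ± 0.36, adjusted p = 0.0206) and was not called without control ROIs 027 or 028 or DDC ROI 033 (adjusted p up to 0.110). In the PanCK segments its means were 3.37 in control and 50.8 in DDC ROIs. *Ccl2* was higher in the IBA1 than in the PanCK segment in 1 of 9 ROIs, *Cx3cl1* in 5, *Ccl5* in 6, *Cxcl14* in 7 and *Ccl9* in 8. *Cxcl10*, an interferon-induced chemokine, was 1.75, 6.57, 19.7 and 3.94 in control segments and 6.80, 2.42, 3.94, 4.36 and 3.00 in DDC segments (log2 fold change -1.19 ± 0.36, adjusted p = 0.0252), which rested on control ROI 028, since the log2 fold change was -0.01 without it (adjusted p = 0.999). The neutrophil chemokines *Cxcl1* (0.50 ± 0.44) and *Cxcl5* (0.52 ± 0.41) did not pass the test (adjusted p = 0.591 and 0.528). The limma fit called 4 chemokines higher, and 1 with the negative probe subtracted.

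Cytokines and growth factors were mostly not called. Of 16 tested, 1 was lower (6.25%, against 5.18% of all genes) and 0 higher (median 0.10). The gene called was *Igf1*, insulin-like growth factor 1 (log2 fold change -0.98 ± 0.28, adjusted p = 0.0159), which was not called without control ROI 027 (adjusted p = 0.0676). *Tnf* was 1.75, 1.31, 2.63 and 11.8 in control segments and 6.18, 4.85, 4.60, 5.15 and 1.5 in DDC segments (log2 fold change 0.12 ± 0.43, adjusted p = 0.960), at or under the negative probe in 3 control and 2 DDC segments. *Tgfb1* had a log2 fold change of 0.68 ± 0.32 (adjusted p = 0.262), which passed without DDC ROI 035 (0.96, adjusted p = 0.0398). In the neutrophil list 1 of 6 genes was called higher (16.7%, against 4.2% of all genes) and 0 lower. *S100a8*, a calcium-binding alarmin of neutrophils and monocytes, was 1.75, 3.94, 1.31 and 2.63 in control segments and 17.3, 17.0, 17.7, 11.7 and 12.8 in DDC segments (log2 fold change 2.65 ± 0.36, adjusted p = 2.28e-07). Its control values were at or under the negative probe in 3 of 4 segments and its DDC values in 0 of 5. Its partner *S100a9* was 21.0, 7.88, 7.88 and 6.57 in control segments and 27.8, 19.4, 13.1, 14.9 and 15 in DDC segments (log2 fold change 0.84 ± 0.30, adjusted p = 0.0734), and its call was made without control ROI 026 (1.22, adjusted p = 0.0112) and without DDC ROI 035 (0.94, adjusted p = 0.0444). *Ly6g*, which defines mouse neutrophils, was 7.00, 14.4, 4.60 and 6.57 in control segments and 4.94, 2.42, 1.97, 5.75 and 3.00 in DDC segments (log2 fold change -0.92 ± 0.36, adjusted p = 0.178). Without DDC ROI 035, *S100a8* and *S100a9* were among 3 neutrophil genes called higher, and *Ly6g* was called lower (-1.20, adjusted p = 0.0403).

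Most antigen presentation genes did not pass the test, and part of the interferon response genes fell. Of 23 antigen presentation genes 2 were called higher (8.70%, against 4.2% of all genes) and 0 lower (median -0.02). *H2-Aa*, a chain of MHC class II, was 24.5, 109, 111 and 56.5 in control segments and 123, 167, 185, 104 and 192 in DDC segments (log2 fold change 1.00 ± 0.34, adjusted p = 0.0463), and its call was lost without control ROIs 026 or 029 or DDC ROIs 032, 033, 034 or 036 (adjusted p up to 0.232). *H2-DMb1*, which helps to load peptides on class II (log2 fold change 0.93 ± 0.28, adjusted p = 0.0229), was not called without control ROIs 026, 027 or 029 (adjusted p up to 0.154). *B2m*, the light chain of MHC class I, was 411, 403, 467 and 340.1 in control segments and 326, 321, 356, 173 and 374 in DDC segments (log2 fold change -0.39 ± 0.30, adjusted p = 0.523), with ROI 035 lowest. Of 24 interferon response genes 5 were called lower and 0 higher (median -0.41). *Irf7*, a transcription factor of the type I interferon response, was 19.3, 18.4, 42.0 and 24.9 in control segments and 13.0, 8.08, 13.1, 8.52 and 9.75 in DDC segments (log2 fold change -1.44 ± 0.25, adjusted p = 3.18e-05). *Ifitm3*, a membrane protein that blocks viral entry, was 64.8, 57.8, 65.0 and 51.2 in control segments and 27.2, 23.4, 31.5, 18.6 and 39.8 in DDC segments (log2 fold change -1.11 ± 0.29, adjusted p = 0.00576). Every DDC segment lay below every control segment for both. The guanosine triphosphatase *Igtp* (log2 fold change -1.11 ± 0.29, adjusted p = 0.00621) was not called without control ROI 028 (adjusted p = 0.332), nor *Ifit3*, an antiviral protein (log2 fold change -0.96 ± 0.27, adjusted p = 0.0126), without control ROI 028 or DDC ROI 035 (adjusted p up to 0.235). The limma fit called 1 lower, and 0 with the negative probe subtracted. *Igkc* and *Igha*, chains of immunoglobulin made by plasma cells, were high in 1 segment of each group, and none of the 6 lymphocyte and plasma cell genes tested was called by edgeR or DESeq2 (0 at an unadjusted p under 0.05 in edgeR). *Igha* was 1.75, 1.31, 3.28 and 471 in control segments and 3.71, 4.85, 12.5, 6.14 and 822 in DDC segments, and *Igkc* was 1.75, 11.8, 15.1 and 403 in control segments and 4.94, 25.9, 17.7, 7.13 and 611 in DDC segments. Neither was called (adjusted p = 0.847 and 0.919), and without DDC ROI 036 their log2 fold changes were -4.12 and -3.04 (adjusted p = 0.000131 and 0.000671), and without control ROI 029 6.07 and 3.60 (adjusted p = 0.00167 and 0.0103).

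Transcripts of hepatocytes fell in the DDC segments. Of 15 hepatocyte genes 13 were called lower and 0 higher (median log2 fold change -1.52), and their summed level was 12375 to 17089 in the control and 1558 to 4578 in the DDC segments. *Alb*, serum albumin, was 10538, 7339.8, 8296 and 7339.8 in control segments and 1587, 1949, 1988, 721 and 2408 in DDC segments (log2 fold change -2.28 ± 0.32, adjusted p = 4.58e-07). *Apoa2*, an apolipoprotein of high-density lipoprotein, was 1292, 998, 1058 and 1133 in control segments and 198, 216, 214, 99.1 and 252 in DDC segments (log2 fold change -2.52 ± 0.33, adjusted p = 8.82e-08). *Ttr*, which carries thyroid hormone, was 354, 272, 259 and 335 in control segments and 61.8, 85.7, 65.7, 32.7 and 98.3 in DDC segments (log2 fold change -2.16 ± 0.33, adjusted p = 1.86e-06). ROI 035 was lowest for each of the 3 genes and the groups did not overlap. *Fabp1*, the fatty acid-binding protein of hepatocytes, was 788, 638, 744 and 747 in control segments and 19.1, 23.4, 13.8, 12.9 and 21.8 in DDC segments, a 40.5-fold lower level (log2 fold change -5.34 ± 0.37, adjusted p = 3.82e-16). *Alb* was 4.84-fold lower. In the periportal IBA1 segments of WT mice *Fabp1* was 730.0 and 1003 in the 2 control segments and 10.5 to 84.0 in the 4 DDC segments (log2 fold change -4.16 ± 0.45, adjusted p = 7.87e-09). The WT log2 fold changes of *Apoa2* and *Alb* were -2.58 ± 0.41, adjusted p = 3.94e-05, and -1.57 ± 0.39, adjusted p = 0.0235. In WT segments 9 of 15 hepatocyte genes were called lower (median -1.91). These segments were stained for a macrophage protein, and the share of their area taken by hepatocytes was not given in the sources used here.

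Among genes of lipid metabolism 26 of 50 were called lower and 1 higher, which was *Lpl* (median -0.89). *Scd1*, the desaturase that makes oleate, was 546, 396, 529 and 439 in control segments and 32.8, 28.3, 44.0, 23.8 and 50.3 in DDC segments (log2 fold change -3.75 ± 0.34, adjusted p = 2.05e-12). *Thrsp*, which promotes lipogenesis, was 80.5, 86.7, 73.5 and 78.8 in control segments and 7.42, 9.70, 3.94, 7.53 and 4.50 in DDC segments (log2 fold change -3.54 ± 0.27, adjusted p = 4.41e-15). *Fasn*, fatty acid synthase, was 28.0, 36.8, 37.4 and 18.4 in control segments and 6.18, 5.66, 7.22, 8.13 and 4.50 in DDC segments (log2 fold change -2.18 ± 0.25, adjusted p = 2.62e-09). Every DDC segment lay below every control segment for these lipogenic genes. In the WT periportal IBA1 segments *Scd1* also fell (log2 fold change -4.04 ± 0.46, adjusted p = 1.81e-08). There *Thrsp* (-1.15 ± 0.96) and *Fasn* (-0.18 ± 0.76) did not pass the test (adjusted p = 0.938 for each), and *Thrsp* was at 10.5 in the 2 WT control segments. The difference between genotypes was not called for any of these genes. Of 36 cytochrome P450 genes 21 were called lower and 0 higher (median -1.10). *Cyp2c67* was 131, 114, 122 and 151 in control segments and 3.09, 6.46, 6.57, 9.71 and 9.00 in DDC segments (log2 fold change -4.13 ± 0.30, adjusted p = 2.11e-15), *Cyp4a14*, a fatty acid hydroxylase, had a log2 fold change of -2.09, and *Cyp2b13* and *Cyp17a1*, given above, are among the female-biased genes. In WT segments *Cyp2c67* was 5.25 and 10.5 in the 2 control and 3.50 to 10.5 in the 4 DDC segments. The difference between genotypes was not called for it (adjusted p = 0.341), and a part of sex was not tested. Of 25 genes of bile acid synthesis and transport 7 were called lower and 0 higher (median -0.33). *Slc10a1*, which takes up bile acids from blood, was 73.5, 74.8, 72.9 and 77.5 in control segments and 13.0, 12.1, 10.5, 10.9 and 13.5 in DDC segments (log2 fold change -2.64 ± 0.26, adjusted p = 4.72e-11). *Slco1b2*, an organic anion carrier, was 26.3, 30.2, 39.4 and 61.7 in control segments and 7.42, 7.27, 6.57, 5.55 and 6.75 in DDC segments (log2 fold change -2.60 ± 0.25, adjusted p = 3.20e-11). *Slc27a5*, the bile acid ligase, fell by 2.16 on the log2 scale. *Cyp7a1*, the rate-limiting enzyme of bile acid synthesis, was 10.5, 9.19, 5.91 and 13.1 in control segments and 4.94, 4.85, 3.28, 7.93 and 4.50 in DDC segments (log2 fold change -0.67 ± 0.31, adjusted p = 0.323). The carbonic anhydrase *Car3*, the carboxylesterase *Ces3b* and the sulfotransferase *Sult2a8* were between 22.3 and 63.0 in control segments and between 1.31 and 8.08 in DDC segments. The hepatocyte list had a median log2 fold change of -1.52 in the same segments. The part of a general fall of hepatocyte RNA in the lipid, P450 and bile acid results was not tested.

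Acute phase and complement genes went both ways. Of 44 tested 16 were called lower (36.4%, against 5.18% of all genes) and 3 higher (6.82%, against 4.2%), with a median of -0.45. *Lcn2*, lipocalin 2, which binds bacterial iron carriers, was 7.00, 5.25, 8.54 and 5.25 in control segments and 56.9, 61.4, 38.1, 27.9 and 37.5 in DDC segments (log2 fold change 2.67 ± 0.37, adjusted p = 2.28e-07). In all 9 ROIs it was lower in the IBA1 than in the PanCK segment. *Serpina3n*, a protease inhibitor induced in injury, was 31.5, 36.8, 44.0 and 38.1 in control segments and 142, 112, 138, 76.1 and 113 in DDC segments (log2 fold change 1.61 ± 0.31, adjusted p = 1.65e-04). *Orm2*, an acute phase glycoprotein, rose by 1.31 on the log2 scale. *Serpina3k*, a related inhibitor of healthy hepatocytes, was 949, 699.8, 752 and 682 in control segments and 95.2, 126.1, 115, 42.2 and 96.8 in DDC segments (log2 fold change -3.03 ± 0.34, adjusted p = 2.01e-09). These related members of 1 gene family differed in direction. *Mbl2*, a lectin that starts complement, was 89.3, 69.6, 80.1 and 74.8 in control segments and 7.42, 9.70, 7.88, 7.93 and 12.0 in DDC segments (log2 fold change -3.14 ± 0.27, adjusted p = 3.59e-13). *Fga*, a fibrinogen chain, and *Serpina3m* had log2 fold changes of -1.79 and -1.54. Here too the part of a general fall of hepatocyte RNA was not tested.

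Of 38 genes of heme and iron handling 6 were called lower (15.8%, against 5.18% of all genes) and 4 higher (10.5%, against 4.2%), with a median of -0.14. *Alas1*, the rate-limiting enzyme of heme synthesis in the liver, was 87.5, 98.5, 97.8 and 85.3 in control segments and 27.2, 23.4, 16.4, 20.6 and 22.5 in DDC segments (log2 fold change -2.07 ± 0.27, adjusted p = 6.30e-08). *Cpox*, a later enzyme of that pathway, was 26.3, 14.4, 21.0 and 17.1 in control segments and 3.09, 8.08, 7.88, 6.34 and 8.25 in DDC segments (log2 fold change -1.56 ± 0.25, adjusted p = 3.88e-06). *Fech*, the ferrochelatase that DDC inhibits, was 10.5, 18.4, 12.5 and 13.1 in control segments and 11.1, 8.89, 8.54, 8.92 and 8.25 in DDC segments and did not pass the test (adjusted p = 0.183), nor did heme oxygenase *Hmox1* (0.44 ± 0.27, adjusted p = 0.381). *Hamp*, hepcidin, which degrades ferroportin, was 163, 143, 193 and 222 in control segments and 39.5, 38.0, 57.1, 30.9 and 80.3 in DDC segments (log2 fold change -1.89 ± 0.32, adjusted p = 2.02e-05). Its paralog *Hamp2*, whose values are given above, fell as well (log2 fold change -4.11 ± 0.30, adjusted p = 2.18e-15). In the same segments the hepatocyte transcripts *Alb*, *Apoa2* and *Ttr* had log2 fold changes of -2.28, -2.52 and -2.16. The part of a general fall of hepatocyte RNA in the falls of heme and iron genes was not tested. The metallothioneins rose, with *Mt1* at 33.3, 21.0, 32.8 and 28.9 in control segments and 99.5, 124, 115, 50.5 and 103 in DDC segments (log2 fold change 1.74 ± 0.32, adjusted p = 7.14e-05) and *Mt2* at 14, 15.8, 17.1 and 28.9 in control segments and 69.8, 80.0, 97.8, 40.0 and 92.3 in DDC segments (log2 fold change 1.98 ± 0.35, adjusted p = 3.13e-05). *Fth1*, ferritin heavy chain (log2 fold change 0.90 ± 0.30, adjusted p = 0.0494), was not called without control ROIs 026, 027, 028 or 029 or DDC ROIs 032, 033, 034 or 036 (adjusted p up to 0.146). Of 28 NRF2 and glutathione genes 3 were called higher (10.7%, against 4.2% of all genes) and 4 lower (14.3%, against 5.18%), with a median of 0.13. The glutathione transferases *Gstm3* (log2 fold change 2.32 ± 0.31, adjusted p = 1.93e-07) and *Gstm1* (1.38) and the UDP-glucose dehydrogenase *Ugdh* (1.14) rose, while malic enzyme *Me1* (-1.53), catalase *Cat* (-1.60), superoxide dismutase *Sod1* (-1.37) and glutathione peroxidase *Gpx1* (-0.93) fell. The call of *Ugdh* was lost without control ROIs 026, 027 or 028 or DDC ROIs 032 or 033 (adjusted p up to 0.291), and that of *Gpx1* without control ROIs 026, 027, 028 or 029 or DDC ROIs 032, 033 or 034 (adjusted p up to 0.134). *Nqo1*, a frequently used NRF2 target, was 12.2, 7.88, 6.57 and 5.25 in control segments and 7.42, 9.70, 4.60, 9.31 and 5.25 in DDC segments (log2 fold change 0.02 ± 0.28, adjusted p = 0.998).

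**Figure D4:**
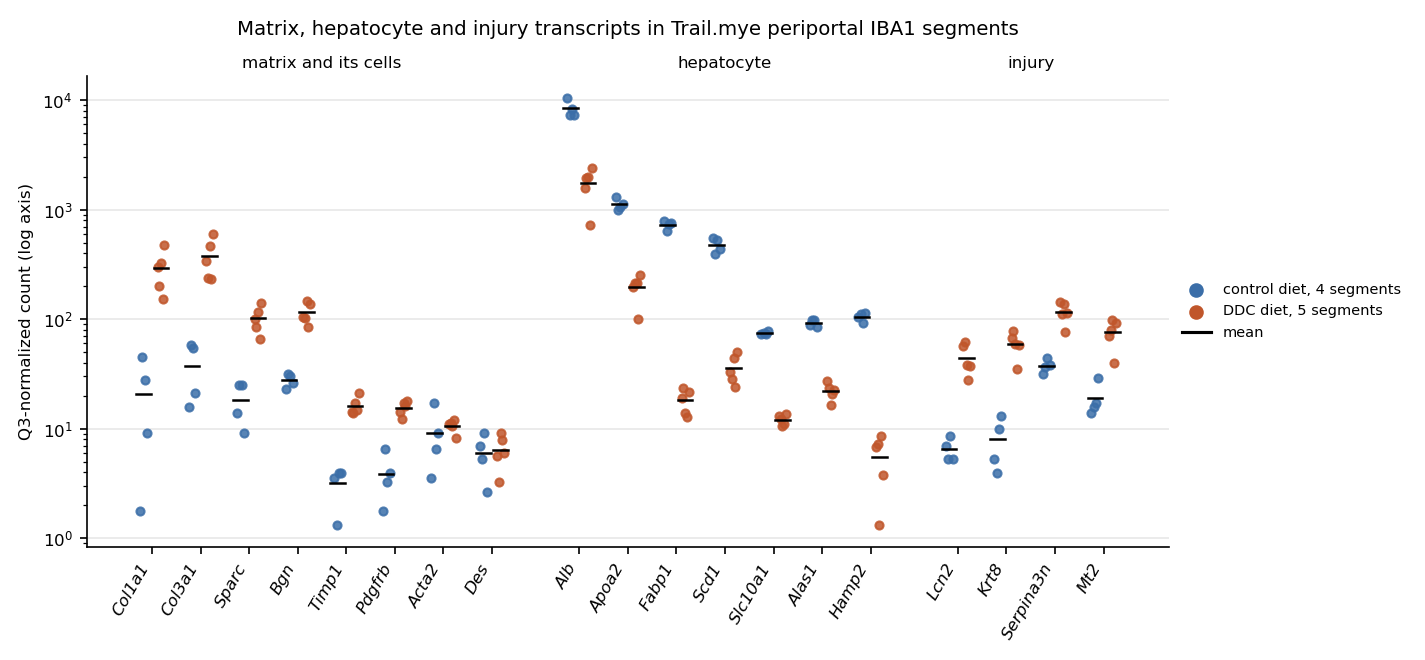
Q3-normalized counts (y axis, log) of matrix, hepatocyte and injury transcripts (x axis) in the 4 control (blue) and 5 DDC (orange) segments, 1 point per segment with means as black bars. *Col1a1* spans 1.75 to 44.6 in control and 152 to 476 in DDC segments, *Fabp1* spans 638 to 788 and 12.9 to 23.4, and *Acta2* and *Des* overlap.

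Cholangiocyte markers were low in these segments. Of 15 tested 1 was called higher (6.67%, against 4.2% of all genes) and 0 lower (median 0.32), and their summed level was 57.8 to 72.2 in control and 66.3 to 113 in DDC segments. *Epcam*, the epithelial adhesion molecule (log2 fold change 1.13 ± 0.32, adjusted p = 0.0158), was not called without control ROI 027 (adjusted p = 0.113). *Krt19* had a log2 fold change of 0.14 ± 0.35 (adjusted p = 0.914). *Krt8*, a keratin of both hepatocytes and cholangiocytes, was 5.25, 3.94, 9.85 and 13.1 in control segments and 67.3, 78.4, 59.7, 34.7 and 58.5 in DDC segments (log2 fold change 2.80 ± 0.37, adjusted p = 1.22e-07). Its partner *Krt18* was 8.75, 9.19, 20.4 and 10.5 in control segments and 47.6, 46.9, 61.7, 27.1 and 33.8 in DDC segments (log2 fold change 1.69 ± 0.37, adjusted p = 9.05e-04). *Krt8* was lower in the IBA1 than in the PanCK segment of all 9 ROIs. Of 40 death receptor and NF-kB genes 2 were called higher and 0 lower (median 0.12), a share of 5% higher against 4.2% of all genes. *Mcl1*, which blocks apoptosis (log2 fold change 1.02 ± 0.29, adjusted p = 0.0158), was not called without control ROIs 026, 027 or 029 (adjusted p up to 0.0789), and the death receptor *Fas* (log2 fold change 1.19 ± 0.39, adjusted p = 0.0430) was not called without control ROIs 026, 027, 028 or 029 or DDC ROIs 033 or 035 (adjusted p up to 0.256). *Tnfrsf10b*, the mouse receptor of TRAIL, was 1.75, 5.25, 3.94 and 1.31 in control segments and 3.71, 1.62, 2.63, 7.73 and 0.75 in DDC segments (log2 fold change 0.31 ± 0.46, adjusted p = 0.810), at or under the negative probe in 2 control and 2 DDC segments. No gene of the 25 of the cell cycle list was called in edgeR's fit (3 at an unadjusted p under 0.05), nor in that of DESeq2, and *Mki67*, a marker of cycling cells, was 12.2, 6.57, 6.57 and 7.88 in control segments and 10.5, 3.23, 10.5, 7.13 and 8.25 in DDC segments. In the stress list 1 of 29 genes was called higher, *Junb* (0.96), and 2 lower, *Atf5* (-1.04) and *Hsp90b1* (-0.81), which is 3.45% and 6.90% against 4.2% and 5.18% of all genes. The call of *Junb* was lost without control ROIs 026, 027 or 029 or DDC ROIs 032 or 033 (adjusted p up to 0.152), and that of *Hsp90b1* without control ROIs 026 or 028 or DDC ROIs 032 or 034 (adjusted p up to 0.129).

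The same diet contrast in the periportal IBA1 segments of WT mice rested on 4 DDC and 2 control segments with totals of 20319 to 35207, and called 125 genes (1.19%). The difference of the diet effect between the genotypes was called for 6 genes (0.0569%), against 203 at an unadjusted p under 0.05, and these comparisons share the Trail.mye segments. The signed log2 diet effect was higher in Trail.mye for all 6, which a smaller fall in Trail.mye than in WT also gives. They were *Gm21783* (4.23 ± 0.78, adjusted p = 0.00459), the aldehyde oxidase *Aox3* (3.67 ± 0.68, adjusted p = 0.00459), *Cyp4a12a* (3.65 ± 0.72, adjusted p = 0.0128), the transferase *Gstp1* (3.10 ± 0.53, adjusted p = 0.00399), the methyltransferase *Bhmt* (2.98 ± 0.55, adjusted p = 0.00459) and the sterol carrier *Scp2* (2.89 ± 0.59, adjusted p = 0.0156). *Bhmt* was 84.0, 55.1, 91.9 and 72.2 in control segments and 67.3, 84.8, 65.7, 29.9 and 66.0 in DDC segments of Trail.mye mice, and 299 and 415 in the 2 control segments and 21.0 to 47.3 in the 4 DDC segments of WT mice. *Gstp1* was 66.5, 40.7, 50.5 and 57.8 in control segments and 105, 103, 108, 46.8 and 136 in DDC segments of Trail.mye mice, and 462 and 767 in the 2 control segments and 78.8 to 194 in the 4 DDC segments of WT mice. The WT control segments lay above every Trail.mye control segment for both genes. *Cyp4a12a*, which is male-biased, was at 1.31 to 3.50 in the Trail.mye and 42.0 and 52.5 in the WT control segments. *Gm21783*, given above, was also lower in every Trail.mye control segment than in both WT control segments. The sex of the mice was not given, and it cannot be told apart from the genotype in these 6 differences. Without WT control ROI 005, which leaves 1 WT control segment that is assumed to vary like the other groups, no gene was called for this difference (122 at an unadjusted p under 0.05). *Clec4f* was 110.3 and 215 in the 2 control segments and 5.25 to 26.3 in the 4 DDC segments of WT mice (log2 fold change -3.33 ± 0.53, adjusted p = 3.81e-05), and *Trem2* was 5.25 and 10.5 in the 2 control segments and 15.8 to 35.0 in the 4 DDC segments (log2 fold change 1.67 ± 0.81, adjusted p = 0.923). *Spp1* was 5.25 and 5.25 in the 2 control segments and 110.3 to 320.4 in the 4 DDC segments, and *Col1a1* was 5.25 and 5.25 in the 2 control segments and 242 to 473 in the 4 DDC segments (adjusted p = 1.55e-05 and 2.06e-05). Both WT control segments held 1 count of these 2 genes, the lowest value in the table, so no fold is given. Between 45.6% and 70.3% of genes were at 1 count in each WT periportal IBA1 segment. In the WT contrast 3 of 12 Kupffer cell genes were called lower, with a median log2 fold change of -1.89. Of the lipid-associated and matrix lists, 2 of 17 and 8 of 41 genes were called higher, and 6 and 20 were at 1 count in both WT control segments. The difference between genotypes was not called for *Spp1* (adjusted p = 1.00), *Trem2* (1.00), *Clec4f* (1.00) or *Col1a1* (1.00).

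Within the 9 Trail.mye ROIs, the diet effect was compared between the IBA1 and the PanCK segment with the ROI as a block. It differed for 172 genes (1.63%), being higher in IBA1 for 35 and lower for 137, and without the block for 28 genes (13 and 15). With TMM factors it was higher for 59 and lower for 83, so the split by direction depended on the normalization. The PanCK totals were 35078 to 54834 in control and 172180 to 836971 in DDC ROIs. Between 19.7% and 41.5% of the genes of a control PanCK segment were at 1 count, and the part of depth in these differences was not tested. The effect was higher in IBA1 for *Spp1* (3.35 ± 0.32, adjusted p = 2.43e-19), *Gas6* (2.29 ± 0.28, adjusted p = 2.97e-11), *Bgn* (2.44 ± 0.32, adjusted p = 7.24e-10), *Gsn*, which severs actin (2.16 ± 0.33, adjusted p = 2.63e-07), and *Col3a1* (2.21 ± 0.34, adjusted p = 3.95e-07). *Gsn* did not pass the test in the IBA1 contrast (log2 fold change 0.05 ± 0.28, adjusted p = 0.985), while its PanCK log2 fold change was -2.04. The effect was lower in IBA1 for *C3*, the central complement protein (-1.48 ± 0.23, adjusted p = 3.95e-07), *Scd1* (-1.63 ± 0.26, adjusted p = 8.21e-07), *Gc*, the vitamin D-binding protein (-1.42 ± 0.23, adjusted p = 1.78e-06), *Clec4f* (-2.83 ± 0.46, adjusted p = 2.63e-06) and *Ass1*, a urea cycle enzyme (-1.56 ± 0.26, adjusted p = 3.33e-06). *Gc* was also called lower within IBA1 (log2 fold change -1.12 ± 0.31, adjusted p = 0.0123), but not without control ROI 026 (adjusted p = 0.0796). *Clec4f* was low in PanCK segments of both diets, with means of 8.62 and 4.55. Of the lists, 10 of 41 matrix genes had a higher and 1 a lower diet effect in IBA1, 12 of 15 hepatocyte genes a lower one, and 3 of 12 Kupffer cell genes a lower one. *Lcn2* rose in both segment classes (2.67 in IBA1 and 3.48 in PanCK), and the difference was not called (adjusted p = 0.712).

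**Figure D5:**
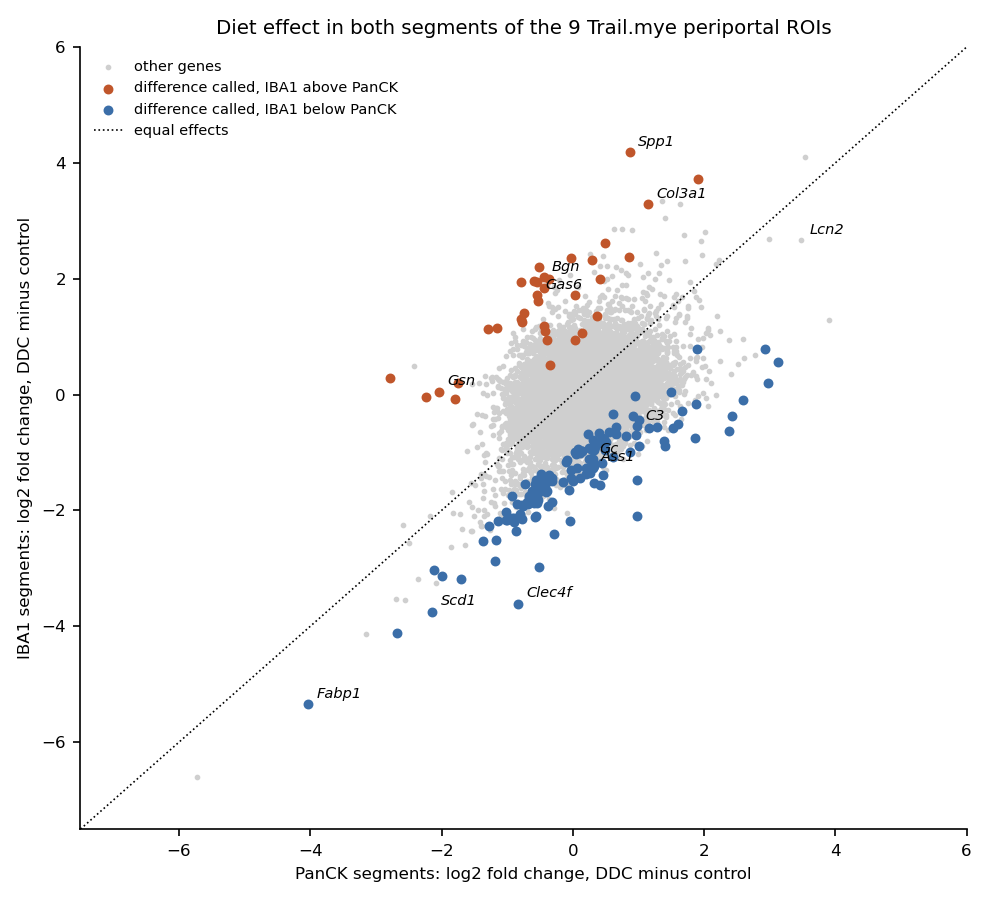
Log2 fold change of the diet (DDC minus control) in the PanCK segments (x axis) and the IBA1 segments (y axis) of the Trail.mye periportal ROIs, each from the fit of its own segment class, 1 point per gene. Orange and blue points are the 35 and 137 genes whose diet effect differed between the classes, and the dotted line marks equal effects. *Spp1* lies at 4.18 in IBA1 and 0.87 in PanCK segments.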

How the data were processed

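GeoMx digital spatial profiling with the mouse whole transcriptome probe set was run on formalin-fixed liver sections stained for PanCK and IBA1. Barcodes were amplified in 18 PCR cycles and sequenced on a NextSeq2000. The submitters' processing notes name bcl2fastq and the mm10 build, and the sources used here do not give the aligner or any collapsing of PCR copies. The authors kept targets above their limit of quantification in more than 10% of ROIs and deposited an estimated count per target and segment, with a lowest value of 1, and the Q3-normalized signal, scaled to 1 common 75th percentile. The 10548 targets comprise 10547 genes and the negative probe, and 3 genes with values that were not whole were rounded.

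The estimated counts were tested with edgeR 4.0.16 (quasi-likelihood, upper-quartile factors, no further filter) over the 15 periportal IBA1 segments in 4 groups, with a coefficient per group, 11 residual degrees of freedom, and Benjamini-Hochberg adjustment over 10547 genes. A gene was called at an adjusted p under 0.05. Log2 fold changes are DDC minus control, with SE. The IBA1 and PanCK comparison has the ROI as a block, since both segments lie in 1 piece of tissue. Residuals of the 2 segments of a ROI correlated by 0.004 to 0.035 in control and 0.054 to 0.590 in DDC ROIs over 8712 genes. Groups come from the labels, and no label pairs a DDC with a control segment. Alternatives used limma 3.58.1, DESeq2 1.42.0, R 4.3.3 and Python 3.11.15. Counting error was not separated from the spread between segments. Counts were also simulated independently for each segment, with the dispersions of the same fit. On these the test called 33.8% of genes changed 2-fold, 93.0% of those changed 4-fold and 0.200% of unchanged genes. No shared mouse and no difference in background was simulated, so these shares cover neither.

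Named were the 12 called genes that rose most and the 12 that fell most (groups without overlap, mean count of 10 or more), up to 4 called members of each list and direction, defining markers, all genes called between genotypes and 5 in each direction between segment classes. Of the genes this rule picks, 2 are not reported here. Other list members were named as examples after their values were seen. The segments, the lists and the rule were chosen with earlier results of these data known. Symbols of 10512 genes matched RefSeq.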

Additional observations from a re-analysis of the deposited data

Results flagged for a closer look

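Of 312 sets of 4 control or 5 DDC values of a named gene, 20 held 1 segment far from the others of its group by Dixon's test, 5 of them DDC ROI 035, and chance alone flags about 1 in 20. The Q3-normalized counts of the segments set apart in the control group were *Cd68* in control ROI 029 (14.4, the others 24.5 to 26.3), *Cd5l* in control ROI 028 (93.2, the others 61.3 to 65.7), *Vsig4* in control ROI 027 (15.8, the others 24.3 to 24.9), *Timp1* in control ROI 027 (1.31, the others 3.50 to 3.94), *S100a9* in control ROI 026 (21.0, the others 6.57 to 7.88), *Tnf* in control ROI 029 (11.8, the others 1.31 to 2.63), *Igkc* in control ROI 029 (403, the others 1.75 to 15.1), *Igha* in control ROI 029 (471, the others 1.31 to 3.28), *Ddx3y* in control ROI 027 (9.19, the others 1.31 to 2.63), *Ugdh* in control ROI 029 (13.1, the others 1.31 to 2.63) and *Krt18* in control ROI 028 (20.4, the others 8.75 to 10.5). In the DDC group they were *Cd9* in DDC ROI 035 (18.6, the others 33.8 to 37.1), *Ccdc80* in DDC ROI 036 (120.0, the others 55.0 to 71.6), *B2m* in DDC ROI 035 (173, the others 321 to 374), *Igkc* in DDC ROI 036 (611, the others 4.94 to 25.9), *Igha* in DDC ROI 036 (822, the others 3.71 to 12.5), *Fech* in DDC ROI 032 (11.1, the others 8.25 to 8.92), *Mcl1* in DDC ROI 035 (20.4, the others 36.4 to 42.8), *C3* in DDC ROI 035 (125.7, the others 244 to 281) and *Fcgr2b* in DDC ROI 035 (25.4, the others 50.1 to 57.8).

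The signed log2 diet effect in IBA1 segments, for which a smaller fall counts as higher, was higher in Trail.mye than in WT mice, by the test of the difference, for *Aox3* (3.67), *Bhmt* (2.98), *Cyp4a12a* (3.65), *Gm21783* (4.23), *Gstp1* (3.10) and *Scp2* (2.89). The sex of the mice cannot be told apart from the genotype for these genes. Within the Trail.mye ROIs the log2 diet effect in IBA1 minus that in PanCK segments differed from 0 for *Spp1* (3.35), *Gas6* (2.29), *Bgn* (2.44), *Gsn* (2.16), *Col3a1* (2.21), *C3* (-1.48), *Scd1* (-1.63), *Gc* (-1.42), *Clec4f* (-2.83) and *Ass1* (-1.56). All these differences passed their test at an adjusted p under 0.05.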

How the results depend on the processing

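Against 443 higher and 546 lower in edgeR, the diet contrast called 325 higher and 515 lower with TMM factors, 209 higher and 449 lower with DESeq2, 249 higher and 314 lower with limma on log2(Q3 + 1) and 255 higher and 311 lower with 0.5 added. It called 669 higher and 503 lower after filterByExpr, 35 higher and 84 lower with segments thinned to the smallest total of all 15, 212 higher and 375 lower with counts of 1 set to 0, 347 higher and 507 lower with the 9 Trail.mye segments alone and 197 higher and 385 lower with these thinned. The methods' unpaired two-group test called 132 higher and 257 lower after Benjamini-Hochberg, and 510 higher and 463 lower at an unadjusted p under 0.05 with a log2 fold change past 1. Chosen after seeing the data, subtraction of the negative probe in the limma fit gave 82 higher and 85 lower, and only genes above 2 times the negative probe gave 537 higher and 568 lower. The share of higher among called genes was 44.8%, and 29.4% (thinned) to 57.1% (filterByExpr) over the other settings. Leaving out 1 segment gave 299 to 470 higher and 430 to 685 lower.

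For the difference between genotypes, 6 genes were called, 3 by DESeq2, 20 by limma with either constant, 11 after filterByExpr, 1 when thinned, 11 with counts of 1 set to 0, 13 with the negative probe subtracted, and 0 to 9 with 1 segment left out. In WT segments 125 were called, 75 with TMM, 432 and 423 by limma, 210 after filterByExpr, 74 when thinned, 208 with counts of 1 set to 0, 489 with subtraction, and 30 to 159 with 1 left out. The difference between segment classes was called for 172 genes with the ROI block (35 higher and 137 lower), 28 with no replicate block, and 104 to 177 with 1 ROI left out. With TMM factors it was called for 142 (59 higher and 83 lower), and after filterByExpr for 163 (39 higher and 124 lower). The log10 difference in total count was 0.189 to 0.381 with 1 segment left out. Without DDC ROI 036 *Igkc* and *Igha* reversed (-3.04 and -4.12), and without control ROI 029 they were 3.60 and 6.07.

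Of 123 named genes that were called, 99 stayed called in the same direction when any 1 of the 9 segments was left out, and 37 under these and the other settings together. The causes of these changes were not tested. Depth limits what can be read from genes near the negative probe.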
